A study of Drosophila melanogaster with 185 samples.

Results

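sNPF, the gene for the precursor of the short neuropeptide F peptides, was followed through libraries of Drosophila melanogaster mushroom body neurons, whole flies and brains. It is 1 of 15682 genes in the deposited counts and was taken by its symbol, with no threshold on its values. Olfactory memories of the fly form in the mushroom body, a centre of the brain. In the study, GFP under a GAL4 driver marked the cells to be drawn, in 7 classes. The Kenyon cells, its intrinsic neurons, were sampled as gamma (NP1131-GAL4) and alpha/beta (c739-GAL4). The classes counted as output neurons were DAL (G0431-GAL4), V2 (R71D08-GAL4), V3 (CG0239-GAL4), 3-86 (3-86-GAL4) and R27G01 (R27G01-GAL4).

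The animals were offspring of UAS-eGFP females and GAL4 males in a w1118 background, kept at 25 °C, so controls carried the driver and the reporter as well. Trained animals met an odour (3-Octanol or 4-Methylcyclohexanol) together with 12 electric shocks of 5 s at 60 V, in 8 blocks spaced by 10 min. Controls met the same stimuli with the shock ahead of the odour. A patch pipette drew 4 cells per library in DAL, V3, 3-86 and R27G01, 12 in V2 and more than 100 in the Kenyon cells, so class and cell number cannot be told apart in comparisons between these sets. There were 6 control and 6 trained libraries in each Kenyon cell class, 5 and 5 in DAL, V2 and V3, 6 and 4 in 3-86, and 4 and 4 in R27G01. Whole flies gave 3 or 4 libraries for each of the 7 drivers and 3 for the reporter line (UAS-GFP), and reporter brains gave 2.

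The sNPF precursor is cut in the secretory pathway into short amidated peptides, which leave the cell from dense-core vesicles. They act on sNPF-R, a G protein-coupled receptor on other neurons and on peripheral cells. In the adult fly, Kenyon cells are known as the largest population of sNPF neurons, with acetylcholine as their fast transmitter, and sNPF also serves olfactory sensory neurons, clock neurons and other brain cells. The peptides are known for roles in feeding, olfaction and sleep, and Kenyon cell sNPF for a part in appetitive memory.

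Total counts ran from 1.69 to 22.9 M (1e6 counts) in the 72 neuron libraries, from 0.932 to 16.2 M in whole flies, and were 1.33 and 2.27 M in the brains. In 3-86, the pairs of sequencing runs of control library 3 and of trained library 2 did not match. The sNPF level was 493 CPM (counts per 1e6 counts of the library) in one run of that control library and 20.8 in the other, against 0.470 and 515 in the trained library. Run 2 of the trained library correlated with run 1 of the control library at r = 0.997 over genes, so each sum mixes RNA of different origin, and the comparisons of Kenyon cells with output neurons, of class pairs, of training and of 3-86 with its flies are also given without both, while the class order and precursor ranks are not. In alpha/beta control library 6 the 2 deposited samples, at 2258 and 2161 CPM of sNPF, correlated at r = 0.950 and may be separate libraries. In the 47 libraries with matching runs and at least 100 sNPF counts, the second run gave 0.947 to 1.15 times the first.

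Of the 7 neuron classes, gamma and alpha/beta Kenyon cells had the highest mean sNPF levels and the smallest relative spread. Gamma control libraries ranged from 2270.2 to 3594 CPM with a median of 3188 (mean 3119 ± 491, SD, n = 6), and gamma trained libraries from 1761 to 3564 with a median of 2816 (2778 ± 686, n = 6). Alpha/beta control libraries ranged from 1567 to 3127 CPM with a median of 2164 (2334 ± 618, n = 6), and trained ones from 1525 to 2492 with a median of 2084 (2063 ± 364, n = 6). The 24 Kenyon cell libraries thus lay within 2.36 times of one another, with a coefficient of variation of 25.7%.

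V2 followed, and none of its 10 libraries was low. V2 control libraries 1 to 5 had 584, 1584, 1215, 1902 and 1105 CPM (1278 ± 500, SD, n = 5), and V2 trained libraries 731, 1629, 2194, 1694 and 749 (1400 ± 640, n = 5). The highest V2 library had 3.76 times the lowest, and 5 of 10 reached the lowest Kenyon cell library.

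In DAL, 3-86 and R27G01, with 4 cells per library, sNPF was high in some libraries and near 0 in others. DAL control libraries had 33.9, 1212, 2.06, 102 and 554 CPM, and DAL trained libraries 3752, 760.3, 1280.2, 344 and 33.7. The first trained library was the highest of all 101, and DAL levels spanned 1825-fold. The 6 libraries of 3-86 controls had 11.8 to 2279 CPM with a median of 404, and the 4 trained ones 8.26, 249.6, 15.7 and 1.33. R27G01 control libraries had 672, 96.9, 71.8 and 351 CPM, and trained libraries 0.692, 1035, 852 and 71.1. The 3-86 libraries spanned 1718-fold and those of R27G01 1496-fold, and 20 of the 38 libraries of 4 cells, V3 included, had under 100 CPM.

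V3 was the class with the lowest levels. Its control libraries had 62.0, 135, 0.140, 0 and 0.331 CPM, and its trained libraries 65.3, 62.9, 18.0, 28.4 and 0.416. The library at 0 allows up to 0.508 CPM (3 counts), a limit that covers counting error only, and 3 V3 libraries held at most 3 counts. The mean over all 10 was 37.2 ± 44.0 CPM (SD), and gamma controls held 79.2 times the mean of V3 controls.

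**Figure D1:**
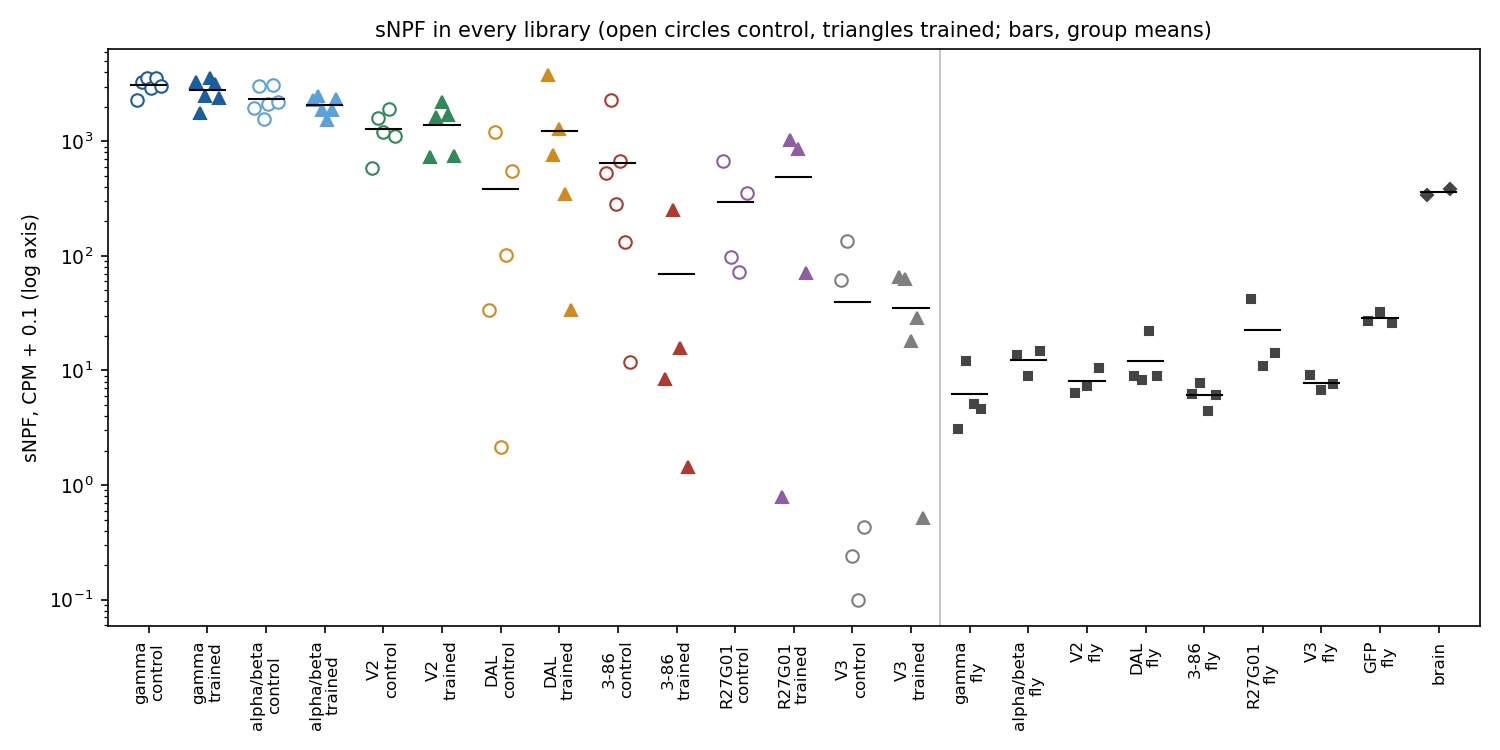
sNPF in every library as CPM + 0.1 on a log axis, by class and training (open circles control, filled triangles trained) and in whole flies (squares) and brains (diamonds), with bars at the group means. The 24 Kenyon cell libraries sit between 1525 and 3594 CPM, the V2 libraries between 584 and 2194, and the other classes spread over several orders of magnitude, while all 27 whole-fly libraries lie between 2.99 and 41.8.

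The first comparison asked whether the intrinsic neurons differ from the output neurons in sNPF. The 24 Kenyon cell libraries averaged 2573 ± 662 CPM (SD) and the 48 output neuron libraries 607 ± 793 with a median of 267. In control libraries the log2 fold change, with every class weighed alike, was 3.18 ± 0.67 (SE, 95% interval 1.80 to 4.55, edgeR adjusted p = 0.00039), where 17.5% of all genes tested were called higher in Kenyon cells and 31.8% in either direction. In trained libraries it was 3.21 ± 0.60 (1.97 to 4.44, edgeR adjusted p = 1.52e-04), against 19.1% of genes called higher and 30.5% in either direction. The 2 sets overlapped, as 7 of 48 output neuron libraries (5 V2, 1 DAL and 1 of 3-86) reached the lowest Kenyon cell library. Without the mixed 3-86 libraries the values were 3.14 and 3.63. With the title code as a covariate, over the 5 classes that allow it, the control value was 3.31 ± 1.80 and not called (edgeR adjusted p = 0.236). In these pooled cells, fewer sNPF cells and less sNPF RNA per cell cannot be told apart.

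Set against V2 alone, the difference was not called. The log2 fold change over V2 was 1.42 ± 1.13 in controls (edgeR adjusted p = 0.656) and 1.04 ± 0.97 in trained libraries (edgeR adjusted p = 0.933). Control gamma libraries did not overlap V2 controls in CPM, while alpha/beta controls did. The intervals of the pairwise log2 fold changes in controls, -0.95 to 4.09 for gamma over V2 and -1.22 to 3.78 for alpha/beta over V2, also hold large differences.

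Markers of other cells moved with this comparison. Kenyon cell markers were higher in Kenyon cells for 13 of 13 genes in both states, and their summed level was 20124 to 38591 CPM in Kenyon cells against 1233 to 14299 in output neurons. Pan-neuronal genes were higher for 6 of 6 genes in controls and 5 of 6 in trained libraries, with sums of 7641 to 14390 against 1634 to 9641 CPM. Fat body genes were lower for 5 of 5 tested in both states, where 14.3% of genes were lower in controls and 11.3% in trained libraries, with sums of 78.2 to 18334 CPM in Kenyon cells against 782 to 138597. Photoreceptor genes were lower for 6 of 7 in controls and 7 of 7 in trained libraries, with sums of 0.227 to 477 against 17.0 to 48704 CPM, and 2 of 7 glial genes were lower, with sums of 44.3 to 723 against 91.3 to 2036. Which part these other cells had in the sNPF difference was not tested.

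**Figure D2:**
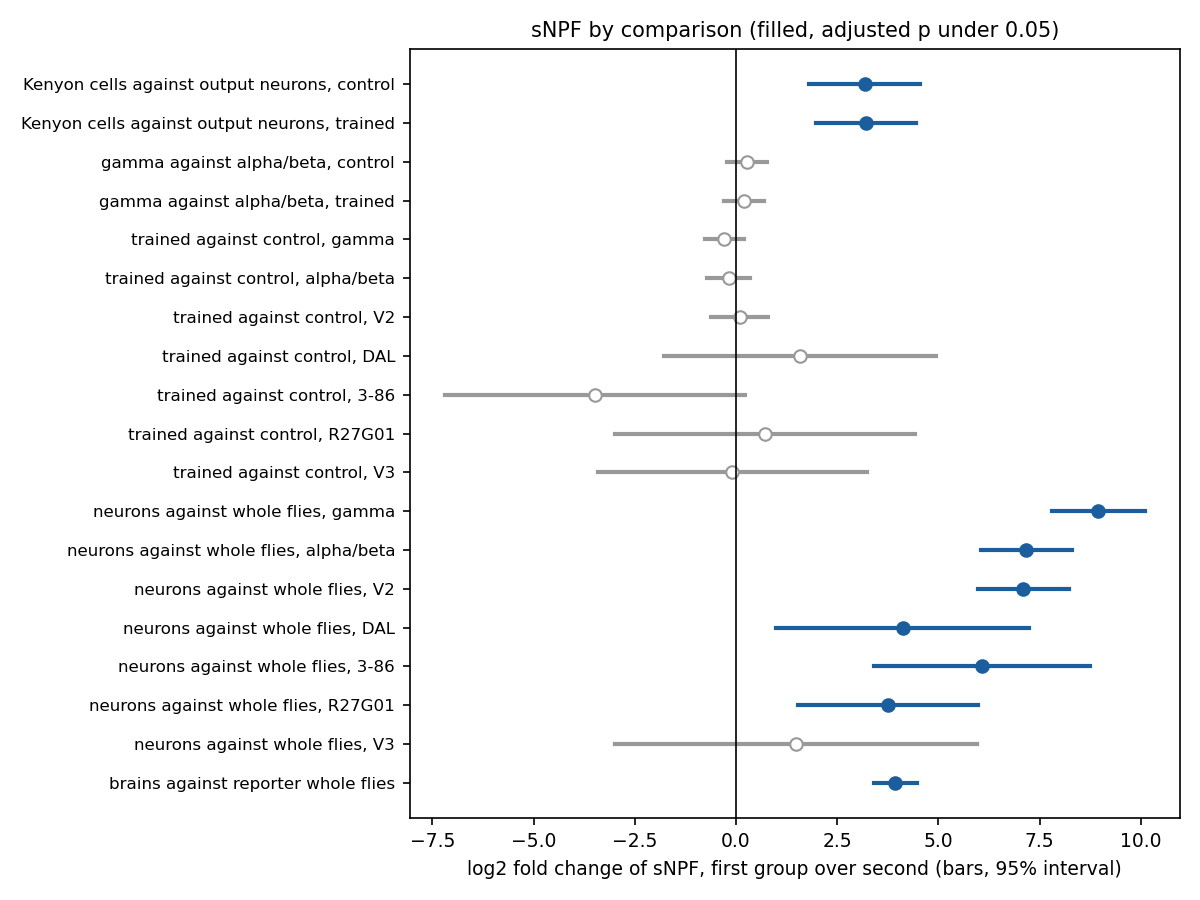
Log2 fold change of sNPF in each comparison (first group over second) with its 95% interval, filled where the edgeR adjusted p is under 0.05. Both comparisons of Kenyon cells with output neurons and 6 of 7 comparisons of neurons with whole flies are filled, and none of the 7 training comparisons is.

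Class by class, sNPF in control libraries fell in the order gamma, alpha/beta, V2, 3-86, DAL, R27G01 and V3 by fitted level. Of the 21 class pairs, 3 were called (5 by DESeq2), with p adjusted over genes and pairs, where 9.45% of all such tests were called. V3 lay below gamma by a log2 fold change of 6.42 ± 1.56 (SE, edgeR adjusted p = 0.00829), below alpha/beta by 6.13 ± 1.54 (edgeR adjusted p = 0.0106) and below V2 by 4.85 ± 1.46 (edgeR adjusted p = 0.0329). These 3 pairs did not overlap in CPM. No neighbours in the order were called, with edgeR adjusted p between 0.161 and 0.983.

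In trained libraries the order was gamma, alpha/beta, V2, DAL, R27G01, 3-86 and V3, and 9 of 21 pairs were called, against 8.72% of all such tests. V3 lay below gamma (log2 fold change 6.28 ± 1.35), alpha/beta (6.01 ± 1.34), V2 (5.11 ± 1.29), DAL (4.97 ± 1.28) and R27G01 (3.97 ± 1.25), with edgeR adjusted p from 0.00379 to 0.0446. The trained 3-86 libraries lay below gamma (5.63 ± 1.45), alpha/beta (5.36 ± 1.43), V2 (4.46 ± 1.38) and DAL (4.32 ± 1.37), with edgeR adjusted p from 0.0147 to 0.0462. DAL overlapped both in CPM, and R27G01 overlapped V3. Neighbours were again not called, with edgeR adjusted p between 0.116 and 0.984. Without the mixed 3-86 libraries 3 control pairs and 10 trained pairs were called, and without the filter on low counts 6 trained pairs. The fit gives all 7 classes 1 spread, with a common coefficient of variation of 1.27 in controls against 0.654 in a fit of Kenyon cells alone.

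The 2 Kenyon cell classes were therefore also compared in their own fit. Gamma had 1.34 times the alpha/beta level in controls and 1.35 times in trained libraries, and the ranges overlapped in both. The log2 fold change after TMM scaling was 0.28 ± 0.24 in controls (SE, 95% interval -0.21 to 0.77, edgeR adjusted p = 0.837, with 0.328% of genes higher and 1.07% lower, 1.4% in all) and 0.20 ± 0.24 in trained libraries (-0.29 to 0.68, edgeR adjusted p = 0.688, with 2.38% of genes higher and 3.87% lower, 6.25% in all). On log2(CPM + 1), without that scaling, an exact 2-sided permutation test gave a difference of 0.44 in controls with p = 0.0325, and 0.41 in trained libraries with p = 0.0671. A 2-fold difference lies outside both edgeR intervals. Taken relative to the whole flies of each driver, gamma over alpha/beta was 1.64 ± 1.59 in controls and 1.82 in trained libraries, not called and with intervals that admit differences beyond 2-fold.

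The Pax6 transcription factor gene ey, a defining marker of Kenyon cells, was read beside sNPF in each output neuron library. Kenyon cells had 444 CPM of ey on average, between 280 and 719, and 23 of 48 output neuron libraries had less than 1 CPM. The vesicular transporter gene prt, which Kenyon cells also express, was below 1 CPM in 26 of 48. V2 control library 4 had 1902 CPM of sNPF, 73.9% of the Kenyon cell mean, with ey at 4.43 CPM, 0.998% of the Kenyon cell mean. Control library 2 of 3-86 had 2279 CPM of sNPF with ey at 1.21, and DAL control library 2 had 1212 with ey at 0.114. R27G01 trained libraries 2 and 3, at 1035 and 852 CPM of sNPF, had no ey count. DAL trained library 3 had none either, at 1280.2 CPM of sNPF. In these libraries prt was 48.5 CPM in DAL control library 2, 3.86 in V2 control library 4 and 2.60 in DAL trained library 3. It was 0 in 3-86 control library 2 and both R27G01 libraries. Summed over all 13 markers, V2 control library 4 held 22.5% of the Kenyon cell mean and DAL trained library 3 18.3%. DAL control library 2 held 6.85%, 3-86 control library 2 14.2%, and the R27G01 libraries 15.8% and 14.6%. In these libraries mub, another of the markers, stood at 3.26% (R27G01 trained library 3) to 18.1% (V2 control library 4) of its Kenyon cell mean. Of the 18 libraries of 4 cells with at least 100 CPM of sNPF, 7 had less than 1 CPM of ey, so the defining marker was at or near 0 in them. Among all 38 libraries of 4 cells, 23 had less than 1 CPM of ey, a larger share.

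Other output libraries held sNPF together with ey. DAL trained library 1 had 25.3 CPM of ey beside its 3752 CPM of sNPF. V2 control libraries had 19.5, 53.5, 71.1, 4.43 and 5.60 CPM of ey, and V2 trained libraries 34.8, 268, 303, 110 and 47.4. The 3 V2 trained libraries with the most ey, libraries 2 to 4, were also those with the most sNPF of their group. Over all 13 markers the output neuron libraries held 4.54% to 52.6% of the Kenyon cell mean, a sum that includes genes which other neurons use, such as rut and dnc of the cAMP pathway. Which part Kenyon cell RNA had in the sNPF of output libraries was not tested.

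**Figure D3:**
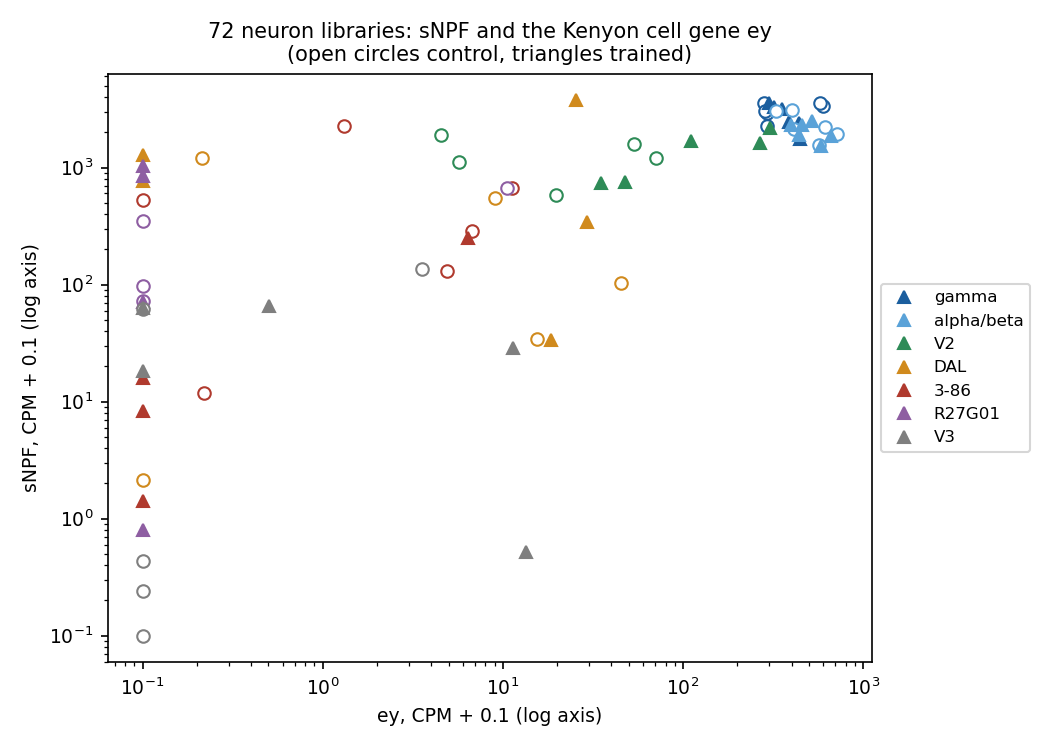
sNPF against ey in the 72 neuron libraries, both as CPM + 0.1 on log axes, coloured by class (open circles control, filled triangles trained). Kenyon cells form a tight cloud between 280 and 719 CPM of ey, while output neuron libraries with less than 1 CPM of ey run from 0 to 1280.2 CPM of sNPF.

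Training was tested within each class, the question being whether spaced pairing of odour and shock changed sNPF. Control and trained ranges of sNPF overlapped in all 7 classes. No change of sNPF was called, and edgeR called 0 of the genes tested in every class (0% in each). At an unadjusted p under 0.05 edgeR had 440 of 7840 genes in gamma, 198 of 7228 in alpha/beta, 393 of 7281 in V2, 136 of 6953 in DAL, 185 of 6692 in 3-86, 133 of 5548 in R27G01 and 100 of 6858 in V3. DESeq2 called 6, 2, 95, 55, 105, 211 and 20 genes in the same order, and sNPF was in none of these sets.

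In Kenyon cells and V2 the sNPF values were close to 0 with narrow intervals. The log2 fold change, trained over control, was -0.29 ± 0.23 in gamma (SE, 95% interval -0.77 to 0.20, edgeR adjusted p = 0.808) and -0.18 ± 0.26 in alpha/beta (-0.71 to 0.36, edgeR adjusted p = 0.999). In V2 it was 0.09 ± 0.33 (-0.62 to 0.80, edgeR adjusted p = 0.999). Changes beyond 2-fold lie outside these 3 intervals.

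In the classes of 4 cells the intervals of sNPF hold far larger changes in either direction. DAL gave 1.58 ± 1.49 (-1.79 to 4.95), R27G01 0.72 ± 1.57 (-3.00 to 4.43) and V3 -0.09 ± 1.57 (-3.40 to 3.23). Single libraries moved these values: DAL was 0.459 without trained library 1 and 2.72 without control library 2, and R27G01 was 0.0159 without trained library 2 and 1.58 without control library 1. V3 was 1.11 without control library 2. The value in 3-86 was -3.49 ± 1.65 (-7.20 to 0.22, unadjusted p = 0.0621, edgeR adjusted p = 0.999). The group means were 649.8 CPM in controls and 68.7 in trained libraries, and mixed trained library 2, at 249.6, was the highest of its group. Without the mixed libraries of both groups it was -6.38 ± 1.43 (unadjusted p = 2.71e-04, edgeR adjusted p = 0.420), and it was -6.20 without trained library 2 alone and -2.41 without control library 2, whereas control library 6, at 11.8 CPM, still lay below trained library 3, at 15.7. A test of whether training acted differently across the 7 classes did not call sNPF (edgeR adjusted p = 0.709, with 1.24% of genes called), also without the mixed libraries (edgeR adjusted p = 0.206).

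sNPF-R, the gene for the receptor, did not follow the peptide gene. Gamma controls had 11.9 to 42.4 CPM (24.3 ± 11.2, SD, n = 6) and alpha/beta controls 3.34 to 27.5 (12.0 ± 8.7, n = 6), against 12.5 to 30.2 and 0.227 to 47.4 in the trained libraries. V2 controls had the highest group mean, with 114, 61.7, 60.4, 114 and 111 CPM (92.3 ± 28.5, n = 5). V2 trained libraries had 22.0, 30.9, 17.3, 67.7 and 12.5, and only the fourth of them reached the range of the controls. That log2 fold change was -1.62 ± 0.50 (SE, unadjusted p = 0.00473) and did not pass over all genes (edgeR adjusted p = 0.650). The summed Kenyon cell markers were 5205 to 7475 CPM in V2 controls and 5364 to 14299 in trained libraries, and their part in this value was not tested.

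The 4-cell classes held libraries with and without receptor counts. DAL controls had 85.9, 0.455, 97.6, 122 and 26.2 CPM of sNPF-R, and DAL trained libraries 6.71, 23.8, 87.2, 18.2 and 52.5. V3, the class with least peptide RNA, had receptor levels of 0, 44.0, 5.47, 0.847 and 52.5 CPM in controls and 58.6, 118, 64.2, 0.188 and 32.8 in trained libraries. In 3-86 the receptor ran from 0.242 to 282 CPM and in R27G01 from 0 to 50.2. Kenyon cells and output neurons were not called different (control log2 fold change -0.99 ± 0.72, edgeR adjusted p = 0.337, trained -0.40 ± 0.70, edgeR adjusted p = 0.751).

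Peptide and receptor RNA occurred together in most Kenyon cell libraries, which pool over 100 cells. At 10 CPM or more, both were present in 19 of 24 Kenyon cell libraries and in 17 of 38 libraries of 4 cells. Of the other 4-cell libraries, 13 held the peptide gene alone, 4 the receptor alone and 4 neither. The 2 DAL libraries with the most sNPF, trained 1 and trained 3, had 6.71 and 87.2 CPM of receptor. Over the 72 libraries, which share classes and differ in depth and cell number, log2(CPM + 1) of the 2 genes correlated at r = 0.04, and at -0.23 after group means were removed.

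**Figure D4:**
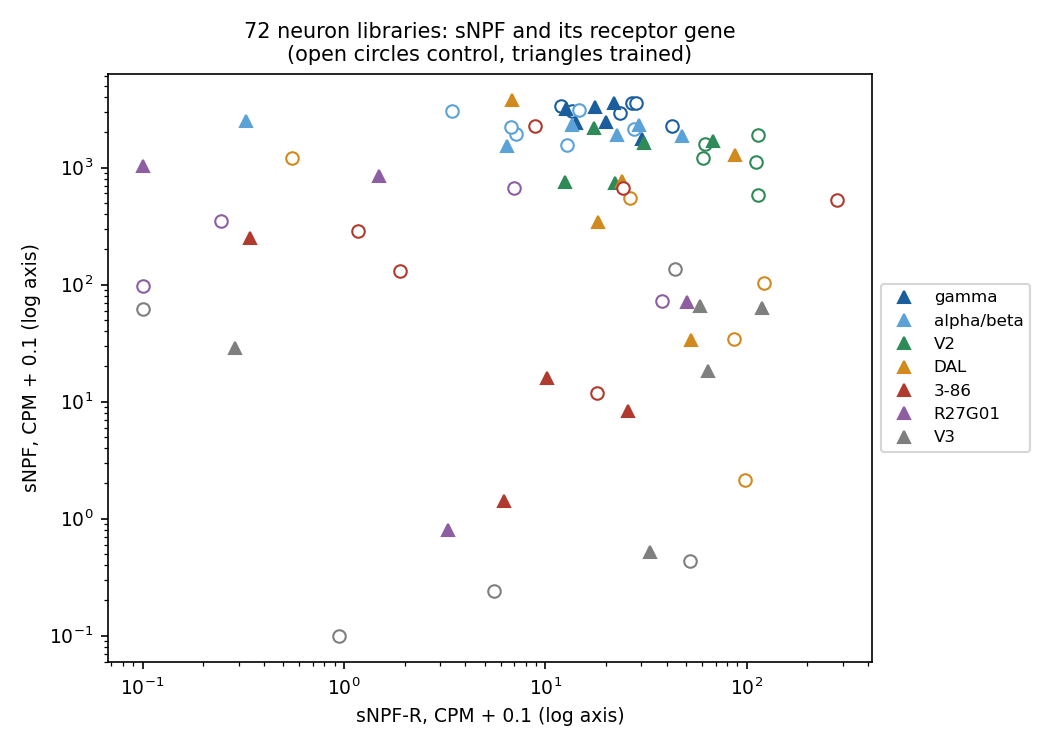
sNPF against sNPF-R in the 72 neuron libraries, both as CPM + 0.1 on log axes, coloured by class (open circles control, filled triangles trained). Kenyon cells have high sNPF over a receptor range of 0.227 to 47.4 CPM, and V3 libraries have little sNPF with receptor levels from 0 to 118.

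The pathway list of 19 genes for processing, release, breakdown and signalling of peptides, which holds sNPF-R and not sNPF, had 4 members higher and 2 lower in control Kenyon cells than in output neurons, with a median log2 fold change of -0.08 against 0.11 over all genes. These shares are near those of all genes, 17.5% higher and 14.3% lower. Nep1, a neprilysin, one of the membrane peptidases that cut peptides outside cells, had 195 ± 45.9 CPM (SD) in Kenyon cells against 19.1 ± 20.5. The ranges of 134 to 287 and 0 to 74.7 did not overlap (log2 fold change 4.15 ± 0.54, SE, edgeR adjusted p = 9.31e-08). Sytalpha, a synaptotagmin of peptidergic cells, stood at 195 ± 119 against 42.5 ± 51.5 CPM (3.18 ± 0.76, edgeR adjusted p = 0.00128). The proprotein convertase gene amon, whose product cuts peptide precursors, had 1420 ± 227 against 880 ± 490 CPM (1.02 ± 0.22, edgeR adjusted p = 2.26e-04). G-oalpha47A, a G protein alpha subunit, had 1793 ± 479 against 1042 ± 424 CPM (1.01 ± 0.19, edgeR adjusted p = 3.45e-05).

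The 2 lower members act at the second step of amidation. Phm, the enzyme of the first step, was not called (log2 fold change -0.34, edgeR adjusted p = 0.355). Pal1 and Pal2, lyases that finish the amidated end of peptides, had 34.8 and 448 CPM in Kenyon cells against 81.7 and 884 in output neurons. Their log2 fold changes were -0.82 ± 0.29 (SE, edgeR adjusted p = 0.0235) and -0.76 ± 0.21 (edgeR adjusted p = 0.00321). Trained libraries had 4 of 18 tested members higher, the same Sytalpha (4.49), Nep1 (3.30), G-oalpha47A (1.03) and amon (0.80), and 1 lower, Pal2 (-0.69), where 19.1% of all genes were higher and 11.3% lower. No member was called between gamma and alpha/beta (0 of 17 in both states), where 1.4% of all genes were called in controls and 6.25% in trained libraries. With training no member was called in any class, where 0% of all genes were called. In V2, 7 of 17 had an unadjusted p under 0.05 with training, against 393 of all 7281 genes, among them Nep1 (2.13 ± 0.71), sNPF-R, IA-2 (-0.94 ± 0.23, edgeR adjusted p = 0.42) and amon. In the same comparison 4 of 13 Kenyon cell markers had an unadjusted p under 0.05, with a median log2 fold change of 0.72 over the list, and their part in these values was not tested.

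Among 7 genes of fast transmission, Kenyon cells were higher in VAChT, the vesicular acetylcholine transporter, and lower in VGlut and Gad1, which mark glutamatergic and GABAergic neurons. The control log2 fold changes were 2.25 ± 0.31 (SE, edgeR adjusted p = 4.57e-07), -2.76 ± 0.34 (edgeR adjusted p = 8.16e-08) and -3.69 ± 1.20 (edgeR adjusted p = 0.0177), and in trained libraries 2.03, -3.12 and -3.09, all called as well. sNPF stood beside high VAChT in gamma (1239 ± 275 CPM, SD, n = 12), alpha/beta (1380.3 ± 455, n = 12) and V2 (950.3 ± 345, n = 10). V2 had more VGlut than VAChT, at 1385.6 CPM on average. Other classes broke this pattern. V3 had the next highest mean VAChT, at 543.7 CPM, with the lowest mean sNPF, at 37.2. DAL had a mean of 212.2 CPM of VAChT with 807.5 of sNPF. In 3-86 and R27G01 sNPF varied while mean VGlut was the highest of the classes, at 9209 ± 4475 (n = 10) and 10049.5 ± 3409 CPM (n = 8). Single libraries ran from 2336 to 16713 CPM of VGlut in 3-86 and from 4136 to 15324.5 in R27G01. Cha, the acetylcholine-synthesising enzyme, was the only one of the 7 called between Kenyon cell classes, in trained libraries (161 CPM in gamma against 256 in alpha/beta, log2 fold change -0.87 ± 0.25, edgeR adjusted p = 0.0338).

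To set sNPF beside other neuropeptide precursors, levels were divided by exon length (Ensembl 115 exon unions on BDGP6, 2.447 kb for sNPF), available for 25 of 26 listed precursors. In alpha/beta Kenyon cells sNPF ranked first in 12 of 12 libraries, with 898 ± 206 CPM per kb (SD) and 80.2% ± 15.97 of the summed precursor level. Next came Dh31, Ast-C, Dms and Dh44, with class means of 23.2 to 63.6 CPM per kb. In gamma it had 1205 ± 243 CPM per kb and 41.6% ± 25.0 of the sum. Corazonin (Crz) led the gamma mean with 2255 ± 2886 CPM per kb, a level that differed so much between libraries that sNPF was first in 6 of 12, and Ast-C, Dh31 and Trissin followed. In V2 sNPF led with 547 ± 223 CPM per kb, 47.5% of the sum and the first place in 7 of 10 libraries, ahead of Dh31, Ast-C, Nplp1 and Dh44.

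Other precursors led where sNPF was uneven. In DAL sNPF had rank 5 with 330.0 CPM per kb, behind Trissin (6105 ± 15447, SD), Nplp1 (3250 ± 3182), npf (825.6 ± 1583) and Dms (685 ± 2129). In 3-86 it had rank 6 with 171, behind the insulin-like peptides Ilp5 (10201 ± 31096), Ilp2 (1535 ± 3480) and Ilp3 (587 ± 1607), and Dms (7531 ± 13179) and Dh31 (570 ± 991). Single libraries held much of these means. Ilp5 had 98661 CPM per kb in control library 1, and Dms 34350 and 29646 in the mixed control library 3 and trained library 2. In R27G01 sNPF led the class mean with 161 ± 166 CPM per kb but was first in 2 of 8 libraries. It was close to Dh44 (159), Nplp1 (129), Ilp5 (108 ± 297, with 843 in control library 1) and Dh31 (81.1). In V3 it had rank 8 with 15.2 CPM per kb, behind Dms (809), Dh31 (652), capa (394), Nplp1 (87.8), Pdf (55.1) and others. In the 2 brains sNPF was the leading precursor, with 28.6% of the sum.

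**Figure D5:**
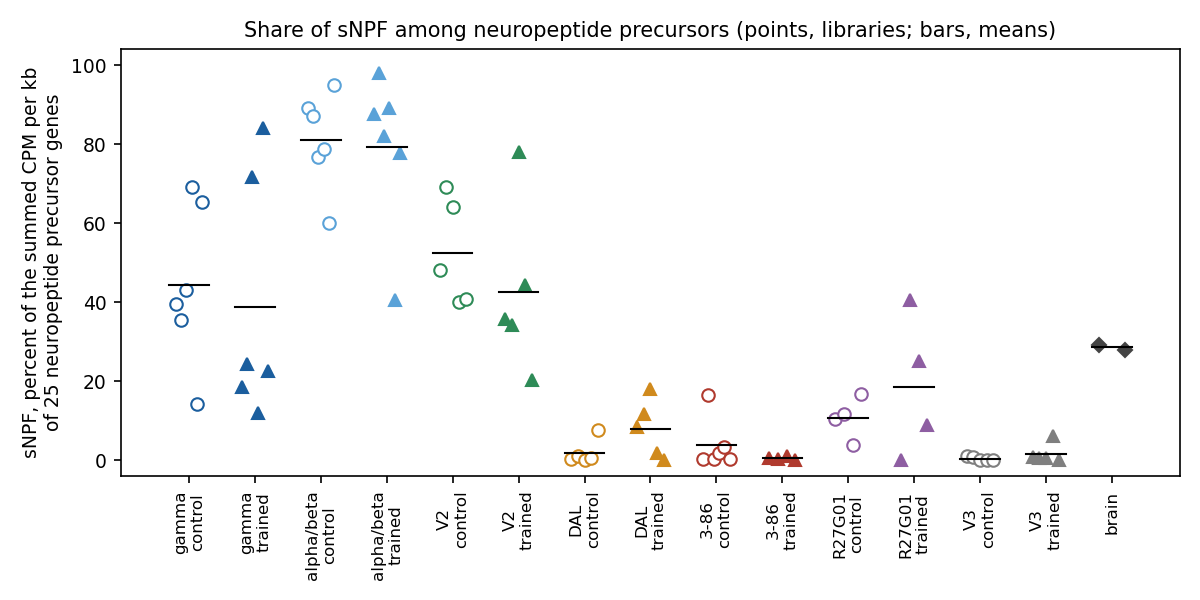
sNPF as a percent of the summed CPM per kb of 25 neuropeptide precursor genes, for each neuron and brain library by class and training (points) with group means (bars). Alpha/beta groups average 81.1% and 79.2%, gamma 44.4% and 38.9%, V2 52.4% and 42.6%, and V3 stays near 0.

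Whole flies gave the level over the entire animal, and sNPF was low there in every genotype. Flies of the drivers had 2.99, 12.0, 5.03 and 4.50 CPM in gamma, 13.5, 8.85 and 14.6 in alpha/beta, 6.27, 7.26 and 10.3 in V2, and 8.82, 8.20, 22.1 and 8.86 in DAL. They had 6.18, 7.65, 4.35 and 5.96 in 3-86, 41.8, 10.9 and 13.99 in R27G01 (flies 2 to 4), and 9.02, 6.63 and 7.50 in V3. Numbers skip in the labels, so alpha/beta and V3 flies are 1, 2 and 4. Reporter flies had 26.98, 32.6 and 26.0 CPM, above every driver fly other than R27G01 fly 2, the whole fly library with the lowest total (0.932 M, 39 sNPF counts). The summed pan-neuronal genes were also higher in reporter flies, at 269 to 313 CPM against 30.3 to 221 in driver flies. Their part in the sNPF difference was not tested. The 8 genotypes were not called different in sNPF (edgeR adjusted p = 0.0609, with 31.5% of genes called). DESeq2 called it (adjusted p = 0.0143), and so did edgeR without DAL fly 2, DAL fly 3, R27G01 fly 3, alpha/beta fly 2 or gamma fly 2 in turn, with adjusted p from 0.0172 to 0.0449.

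Control neurons were set against flies of the same driver, and sNPF was higher in 6 of 7 classes. Descriptions of the gamma and 3-86 flies carry A and B suffixes, and whether A and B flies share a source is not given, so those p-values may rest on fewer independent samples. The log2 fold change was 8.95 ± 0.53 in gamma (SE, edgeR adjusted p = 7.72e-09, with 36.5% of genes higher and 74.5% called in either direction), 7.18 ± 0.52 in alpha/beta (edgeR adjusted p = 6.36e-07, 27.2% higher and 57.6% called) and 7.10 ± 0.50 in V2 (edgeR adjusted p = 7.83e-06, 19.6% higher and 37.8% called). It was 6.08 ± 1.23 in 3-86 (edgeR adjusted p = 0.00251, 12.5% higher and 27.3% called), or 6.25 ± 1.29 without the mixed control library (edgeR adjusted p = 0.0038), and these 4 classes did not overlap their flies. R27G01 gave 3.75 ± 0.97 (edgeR adjusted p = 0.0229, 9.4% higher and 23.4% called), again with no overlap. Without control library 1 or 4, or without fly 3 or 4, its edgeR adjusted p was 0.0556 to 0.0633. An exact 2-sided permutation test gave p = 0.0571 and did not pass 0.05.

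In sNPF, DAL and V3 overlapped their flies. DAL gave 4.12 ± 1.42 (SE, edgeR adjusted p = 0.0458, with 15.7% of genes higher and 32% called), and the call was lost without any 1 of control libraries 2, 4 and 5 or of the 4 fly libraries, with edgeR adjusted p from 0.0501 to 0.123. It was lost as well with the size factors of DESeq2 (3.72, edgeR adjusted p = 0.0679) and in an exact 2-sided permutation test (2.98, p = 0.143). V3 gave 1.49 ± 2.02 (95% interval -2.98 to 5.97, edgeR adjusted p = 0.676, 12.8% higher and 26.4% called), and 4 of its 10 control and trained libraries lay above every whole fly. Over all 5 output classes 34 of 48 libraries did.

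Brains lay between flies and Kenyon cells. The 2 brain libraries had 343 and 382 CPM of sNPF, 12.7 times the mean of reporter flies, and Kenyon cells had 7.10 times the brain mean. The log2 fold change of brains over reporter flies was 3.94 ± 0.23 (SE, edgeR adjusted p = 5.44e-07, with 28.2% of genes called higher and 75.8% either way). The labels do not say that the brain libraries, named A and B, are separate samples. If they are not, this error and p do not measure the spread between brains. The receptor gene had 26.2 and 58.1 CPM in brains and was higher too (4.66 ± 0.60, edgeR adjusted p = 8.21e-05), while whole flies had 0 to 3.39 CPM and 10 of 27 no count. All 10 V2 libraries had more sNPF than either brain, as did 5 of DAL, 3 of 3-86, 3 of R27G01 and none of 10 in V3.

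In brains, 12 pathway members were higher than in reporter flies, 2 were lower and 5 were not called of 19, where 28.2% of genes were higher and 47.7% lower. The higher members included Nep3, another neprilysin (7.96 ± 0.28, edgeR adjusted p = 9.3e-08), and IA-2, a dense-core vesicle protein (5.43 ± 0.25, edgeR adjusted p = 1.6e-07). Neurons of a class had 9 to 14 members higher and 0 to 2 lower of 15 to 17 tested than flies of their driver, with V3, where sNPF was not called, at 10 higher and 0 lower. Over all genes, 9.4% (R27G01) to 36.5% (gamma) were higher in these comparisons and 13.6% (V3) to 38% (gamma) lower. Pan-neuronal genes were higher for 6 of 6 in brains and in each of the 7 classes, and fat body genes were lower for 5 of 5 tested in brains. Their part in the pathway counts was not tested. The gene amon was higher in all 7, by a log2 fold change of 6.69 ± 0.75 in R27G01 to 8.47 ± 0.92 in 3-86. sNPF-R was called higher in gamma (5.43), V2 (7.08) and DAL (6.65), and not in alpha/beta (3.18, edgeR adjusted p = 0.0679), 3-86 (5.85, edgeR adjusted p = 0.0505) or V3 (6.60, edgeR adjusted p = 0.0922), and it was too low to test in R27G01.

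The genes whose levels were most like those of sNPF were ranked over the 72 neuron libraries by Pearson's r of log2(CPM + 1), among 6205 genes with a mean of at least 10 CPM. The points share classes, cell number and depth, and the median r of all these genes was 0.186. The 10 highest were jdp (0.744), jim (0.736), YT521-B (0.735), CG17778 (0.729), CG30127 (0.717), CG5830 (0.716), CG4622 (0.715), coro (0.712), CG15385 (0.7097) and prt (0.707), with ey at 0.692. Over the 7 control class means they ran from 0.709 for YT521-B to 0.907 for CG30127. Within class and training groups the values were lower, from 0.143 for CG30127 to 0.564 for YT521-B, where the highest of any gene was 0.605. jdp, a DnaJ-family gene, had 7219 and 7163 CPM in gamma and alpha/beta against 1846 in V2 and 476 to 856 in the other classes, a steeper drop into V2 than that of sNPF.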

How the data were processed

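The authors deposited read counts per gene with no normalization. Per the submitters' processing notes, the tools were cutadapt, TopHat2, Bowtie, Bowtie2, HTSeq and DESeq2 1.4 with build BDGP5, and whether counting used strand is not given in the sources used here. Per the labels' protocols, RNA of the drawn cells was amplified by SMARTer in 15 rounds, with 12 more for barcodes, so reads are not independent molecules and limits from counts cover counting error only.

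The 185 samples are 101 libraries, as 84 were deposited as 2 runs or samples, which were summed. CPM was computed from library totals. All comparisons were fitted on the whole table with edgeR 4.0.16 under R 4.3.3 (filterByExpr, TMM, robust quasi-likelihood, 2-sided tests), with Benjamini-Hochberg adjustment over all genes tested, or over genes and 21 class pairs, and a threshold of 0.05. DESeq2 1.42.0, limma 3.58.1, other scalings and filters, exact permutation tests on log2(CPM + 1) and leaving out each library were alternatives. The code was tested on simulated data. Replicates are libraries. Their animals are not given, so a p-value reflects library-to-library spread, which may be technical. sNPF-R, the 10 genes most like sNPF, the 5 highest precursors of each class and up to 5 called members of the pathway and fast transmitter lists (largest change, at least 10 CPM in the higher group) are named, and others were chosen after their values were seen. sNPF, the lists and the tests were chosen with earlier results of these data known. A compiled table of counts and a table in CPM were not used.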

Additional observations from a re-analysis of the deposited data

Results flagged for a closer look

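Of 34 groups of 4 to 6 libraries checked for sNPF and sNPF-R, 6 held a library whose gap to its nearest neighbour took most of the range of the group (Dixon's test). Chance marks about 1 in 20 groups where values are normally distributed. The test was made on CPM, which was skewed in the classes of 4 cells, so that rate may not hold here. All 6 flagged libraries were the highest of their group. For sNPF, 3-86 control library 2 had 2279 CPM where the next had 668. Trained library 2 of 3-86, whose runs did not match, had 249.6 CPM where the next had 15.7. DAL whole fly 3 had 22.1 CPM where the next had 8.86. For sNPF-R, 3-86 control library 1 had 282 CPM against 24.2 in the next, R27G01 trained library 4 had 50.2 against 3.18, and 3-86 whole fly 3 had 2.10 against 0.229.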

How the results depend on the processing

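The 23 results for sNPF were repeated in 134 alternatives, of which 120 were scored as unchanged, and in 405 fits without 1 library, of which 383 were. Unchanged meant the same side of the threshold and, for fold changes, the same direction. Counts of class pairs were scored only by closeness to the main count. Without 1 library, 2 to 4 control pairs against 3 and 6 to 10 trained pairs against 9 passed as unchanged. Kenyon cells against output neurons lost the call in controls with the title code as a covariate (3.31) and against V2 alone (1.42, and 1.04 in trained libraries). DESeq2 called 5 control class pairs in place of 3, and whole fly genotypes (adjusted p = 0.0143). The exact permutation test was judged by its p for sNPF alone, not adjusted over genes. That p was under 0.05 for gamma against alpha/beta in controls (0.44) and not for DAL (2.98) or R27G01 (3.36, p = 0.0571) against flies. DESeq2's size factors lost DAL as well (3.72). Signs turned in permutation tests for V3 against flies (-0.38) and for training in R27G01 (-0.99) and V3 (1.60), and with the title code for training in V2 (-0.37) and V3 (0.32). None of these values with a turned sign was called. Without 1 library at a time, neurons against flies ran from 3.22 to 4.65 in DAL and 2.70 to 4.43 in R27G01, training from -0.0934 to 0.287 in V2 and -0.53 to 1.11 in V3, and the adjusted p of fly genotypes from 0.0172 to 0.106. The causes were not tested. The size factors of DESeq2 moved the all-gene median (log2 fold change) by over 0.1 in trained Kenyon cells against output neurons (0.23 to 0.12) and in brains against flies (-1.07 to -0.90), with sNPF called in both.

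Whole fly numbers did not pair the samples: libraries with the same number correlated at a mean r of -0.02 over 79 pairs, and others at 0.01 over 239. The fly genotype test with the replicate block gave an adjusted p of 0.0923. The series text speaks of paired control and trained animals, but no label names the pairs. Codes that end the titles are shared by some control and trained libraries, and fitted as a covariate they gave training values of -0.31 in gamma, -0.39 in alpha/beta, 1.54 in DAL, -3.88 in 3-86 and 0.38 in R27G01, none called. With 4 cells a library, even the value of -6.38 for training in 3-86, without the mixed libraries, was not called, and no limit of detection was computed.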

Other observations

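In DAL, sNPF stood beside different leading precursors from library to library. Control library 2 and trained library 1 were led by Trissin, at 48814 and 11722 CPM per kb, and had 1212 and 3752 CPM of sNPF, the highest of their groups, with sNPF-R at 0.455 and 6.71 CPM. Control libraries 1 and 3 and trained library 5, led by Nplp1 at 7300, 1538 and 10397 CPM per kb, had 33.9, 2.06 and 33.7 CPM of sNPF with sNPF-R at 85.9, 97.6 and 52.5. Control library 5 and trained libraries 2 and 3 were led by Nplp1 as well, at 1525, 1962 and 993 CPM per kb, and had 554, 760.3 and 1280.2 CPM of sNPF. Control library 4 was led by npf, at 4953 CPM per kb, with 102 CPM of sNPF and 122 of sNPF-R. Trained library 4 was led by Dms, at 6745 CPM per kb, with 344 CPM of sNPF. These libraries were picked out after their values were seen, and no test was made of them.

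In gamma Kenyon cells, sNPF stayed between 720 and 1469 CPM per kb in all 12 libraries, while its share ran from 12.0% in trained library 4, where Crz had 9902 CPM per kb, to 84.1% in trained library 5.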
